A study of Mus musculus with 28 samples.

Results

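The left ventricle (LV) of knockout mice that had received the high dose of TN-401 was compared with the LV of untreated knockout mice, using RNA-seq counts for every gene. The members were the LV libraries titled as Pkp2 knockout with 6E13 (3 libraries, animals 250, 631 and 645) and as Pkp2 knockout with HBSS (4 libraries, animals 177, 180, 257 and 264), which makes 7 of the 28 libraries of the series, 1 per animal. All 7 animals were C57BL6 mice with both Pkp2 alleles floxed and the αMyHC-Cre-ER(T2) transgene, a tamoxifen-activated recombinase made in cardiomyocytes, so deletion was confined to that cell type by design, and all received tamoxifen. TN-401 is an adeno-associated virus of serotype 9 (AAV9) that carries human PKP2. The treated animals received it once by retro-orbital injection at 6E13 vector genomes per kg, 1 week before tamoxifen, and the untreated animals (cKO) received HBSS buffer. Other LV libraries entered as reference levels: 5 from floxed littermates without Cre given buffer and tamoxifen (WT), and 4 from knockouts given 3E13 vector genomes per kg (3E13). The title of the series speaks of about 10 weeks. The study gives a time of collection after induction for the experiment and an age range over its animals, but lists its buffer-treated knockouts as dead at that time. When their hearts were collected is not given in the sources used here, so time after induction and treatment cannot be told apart. Library preparation is labelled both as polyA selection and as a stranded total RNA kit with ribosomal RNA removal.

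Plakophilin-2 is an armadillo-repeat protein that ties the desmosomal cadherins to desmoplakin and the intermediate filaments at the intercalated disc, the junction that couples cardiomyocytes end to end. Loss of PKP2 is the most common genetic cause of arrhythmogenic right ventricular cardiomyopathy, in which muscle is replaced by fibrous and fatty tissue and ventricular arrhythmias occur. The desmosome shares the disc with the gap junction, built mainly from connexin 43, and loss of one is known to disturb the other.

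The LV libraries held 22964339 to 34984848 assigned reads in the treated group and 23610770 to 27919251 in cKO, and levels are given as CPM, the reads of a gene per 1000000 reads of the scaled library size. The human transgene stood at 535, 333 and 372 CPM in treated animals 250, 631 and 645 and had no count in any of the 4 cKO libraries, at least 2514 times higher than the floor of 3 counts. Mouse Pkp2 was at 35.9, 43.2 and 39.2 CPM in the treated and 29.2, 44.9, 41.95 and 55.2 CPM in the cKO libraries (log2 fold change -0.12 ± 0.17, SE, adjusted p = 0.67), against 112 ± 6.90 CPM (SD, n = 5) in WT, so the deletion was visible in both groups. Esr1, the gene from whose human form the ER(T2) moiety of the Cre derives, gave a log2 fold change of -0.80 ± 0.24 (adjusted p = 0.034), and it turned positive with transcript length offsets (0.20) and on centred log2 TPM (0.25). One cKO library, animal 177, stood apart from the others of its group. Over the genes tested its correlation averaged 0.933 with its own group and 0.888 with WT, against 0.954 to 0.963 and 0.943 to 0.957 for the other cKO libraries. Results that rest on it are given with and without it. Transcripts of the mitochondrial genome took 33.7 ± 3.51% of counts (SD, n = 3) in the treated and 23.7 ± 3.94% (n = 4) in the cKO libraries, with no overlap (two-sided exact permutation test, p = 0.0286, the smallest that 35 splits allow), and 35.4 ± 1.71% in WT. In bulk tissue, fewer cells of a type and less RNA per cell cannot be told apart.

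Across the 16410 genes tested, 2759 differed between high-dose treated and untreated knockouts by edgeR's quasi-likelihood test with Benjamini-Hochberg adjustment at 0.05: 1420 were higher (8.65%) and 1339 lower (8.16%) in the treated hearts. The median log2 fold change of all genes was -0.04, and among called genes 361 were over 2-fold higher and 650 over 2-fold lower. All 3 treated libraries lay above all 4 cKO libraries in 2201 genes (13.4%) and below them in 1887 (11.5%). The fit shared its estimate of spread across all 4 LV groups. With only the 7 libraries of the comparison 305 genes were called, 111 higher and 194 lower. On log2 TPM, which moved the median of all genes to -0.29, the split was 246 higher against 3704 lower, and with each library centred on its median gene it was 1507 of 2473 higher. The count was 2863 without cKO 177, and 1665, 1515 and 1169 without treated animals 250, 631 and 645. Of the 131 called genes named in the text, those 4 removals ended the call of 8, 31, 34 and 43, and removal of cKO 180, 257 or 264 that of 6, 9 and 12. A further gene, Arg1, could not be tested without cKO 177.

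**Figure D1:**
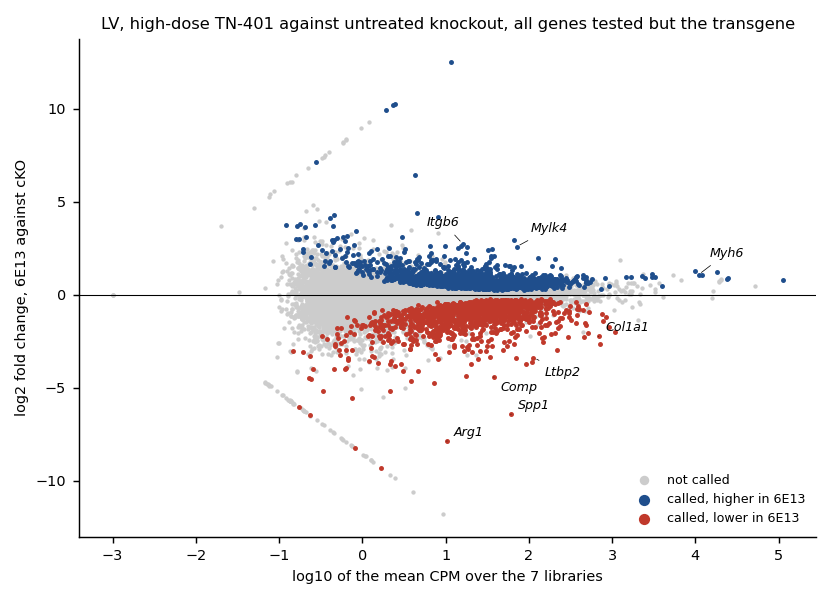
Log2 fold change of LV 6E13 against cKO (y) against the log10 mean CPM over the 7 libraries (x), 1 point per gene tested apart from the transgene; blue points are the 1420 genes called higher less the transgene, red points the 1339 called lower, grey points genes not called. The straight rays are genes with no count in one group, whose fold depends on the fit's prior count; of the genes given a name, Arg1 and Spp1 lie lowest and Itgb6 highest.

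The 10 largest rises by the naming rule included genes of the sarcomere, of ion channels and of interferon responses. Itgb6, the β6 integrin subunit (chromosome 2, 60428636 to 60553035, minus strand, GRCm39), was at 25.9, 36.4 and 31.5 CPM in the 3 treated libraries and at 6.97, 1.99, 5.79 and 3.99 CPM in the 4 cKO libraries, a log2 fold change of 2.73 ± 0.48 (adjusted p = 0.0021). Ky, a peptidase-like protein of the Z-disc region of muscle (chromosome 9, 102382949 to 102423441, plus strand), was at 29.6, 27.4 and 31.2 CPM against 1.85, 5.87, 7.17 and 4.02 CPM (log2 fold change 2.64 ± 0.35, adjusted p = 0.00051). Mylk4, a myosin light chain kinase (chromosome 13, 32884810 to 32968052, minus strand), was at 153, 132 and 123 CPM against 8.07, 40.7, 7.62 and 35.03 CPM (log2 fold change 2.58 ± 0.45, adjusted p = 0.0022). As the rule that named them required, each treated library lay above each untreated one for these genes, and in cKO the levels of Mylk4 fell into a lower pair, 177 and 257, and a higher pair, 180 and 264. Scn4b, the β4 subunit of sodium channels, stood at 30.99, 36.5 and 13.3 CPM against 0.728, 8.53, 2.97 and 6.93 CPM (log2 fold change 2.50 ± 0.60, adjusted p = 0.012). Myh7b, a slow-type myosin heavy chain, was at 62.5, 59.6 and 82.1 CPM against 2.18, 19.4, 15.4 and 12.5 CPM (log2 fold change 2.46 ± 0.47, adjusted p = 0.0035). Treated animal 645 was the lowest of its group for Scn4b and the highest for Myh7b. The other 5 of the 10 largest rises were Ces1d, a carboxylesterase (log2 fold change 2.54 ± 0.61, adjusted p = 0.012), Myo5c, a class V myosin motor (log2 fold change 2.46 ± 0.54, adjusted p = 0.00799), Hs3st5, a heparan sulfate sulfotransferase (log2 fold change 2.31 ± 0.43, adjusted p = 0.0033), Igtp, an interferon-inducible GTPase (log2 fold change 2.25 ± 0.41, adjusted p = 0.0026), and Lrrc15, a leucine-rich repeat membrane protein (log2 fold change 2.09 ± 0.53, adjusted p = 0.016). WT levels of Itgb6, Ky and Mylk4 were 41.98 ± 4.505, 34.8 ± 3.50 and 204 ± 37.99 CPM (SD, n = 5). None of these 10 genes was called between the treated group and WT (lowest adjusted p = 0.249), a p that does not show them to be equal. All 10 were called without cKO 177, with log2 fold changes from 1.72 to 2.99, and 4 of 10 in the fit of the 7 libraries alone.

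The 10 largest falls, of which 9 are given, included genes of the extracellular matrix and of inflammatory cells. Comp, cartilage oligomeric matrix protein (chromosome 8, 70826192 to 70834716, plus strand), was at 0.917, 2.93 and 5.27 CPM in the treated and 5.41, 57.3, 148 and 45.3 CPM in the cKO libraries (log2 fold change -4.43 ± 0.86, adjusted p = 0.0038). Lox, which cross-links collagen and elastin, was at 25.4, 14.9 and 3.41 CPM against 193, 88.9, 169 and 263 CPM (log2 fold change -3.60 ± 0.80, adjusted p = 0.0085). Serpina3n, a secreted protease inhibitor, was at 15.95, 11.6 and 6.68 CPM against 158, 90.3, 145 and 224 CPM (log2 fold change -3.75 ± 0.93, adjusted p = 0.014). As the naming rule required, all 4 untreated hearts were above all treated ones for these genes. By far the lowest untreated level of Comp was that of cKO 177. Cdkn1a, the cell cycle inhibitor p21, was at 15.3, 10.2 and 6.31 CPM against 47.7, 134, 41.8 and 231 CPM (log2 fold change -3.41 ± 0.65, adjusted p = 0.0036). Gpnmb, a glycoprotein abundant in macrophages, was lower, at -3.46 ± 0.51 (adjusted p = 0.00093). Of the 9 falls given here, 7 were called without cKO 177 and 3 with the 7 libraries alone. For the 4 described next, the size of the fall rested in part or wholly on cKO 177. Spp1, osteopontin, was at 2.28, 0.963 and 0.182 CPM in the treated and 397, 3.91, 9.78 and 11.1 CPM in the cKO libraries (log2 fold change -6.43 ± 1.65, adjusted p = 0.017), and -2.81 (adjusted p = 0.0497) without that library. Adam8, a metalloprotease-disintegrin of leukocytes, was at 2.28, 0.525 and 1.36 CPM against 96.9, 4.05, 6.87 and 12.1 CPM (log2 fold change -4.40 ± 0.99, adjusted p = 0.0087), and -2.44 (adjusted p = 0.0068) without it. Clec4e, a C-type lectin receptor of macrophages, gave a log2 fold change of -4.62 ± 1.27 (adjusted p = 0.023) with it and -1.96 (adjusted p = 0.11) without it. Arg1, arginase 1, had 4, 2 and 0 counts in the treated libraries and 2557, 5, 8 and 8 in cKO, so its call was that of 1 library and it was not testable without it.

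**Figure D2:**
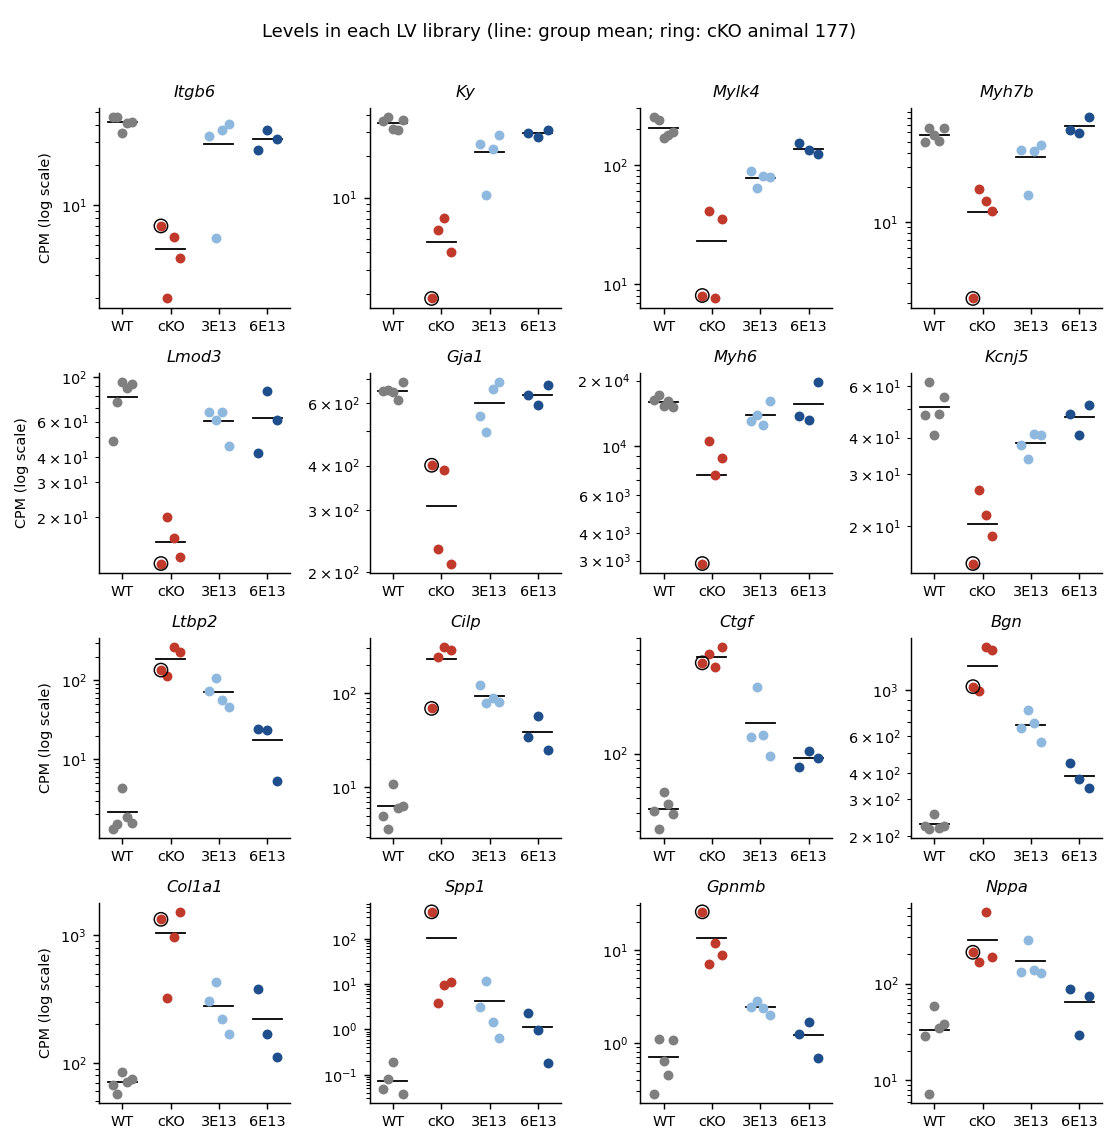
CPM (log axis) in each LV library of WT, cKO, 3E13 and 6E13 for 16 named genes of muscle, matrix and inflammation; each point is 1 animal, the line is the group mean, and a ring marks cKO 177. For Itgb6 the 3 treated points lie between 25.9 and 36.4 CPM and the 4 cKO points between 1.99 and 6.97.

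Of the desmosome and intercalated disc genes, 5 of 27 tested were higher and 2 lower, with a median log2 fold change of 0.15 (8.65% and 8.16% over all genes). Gja1, connexin 43 of the ventricular gap junction, was at 633, 594 and 672.9 CPM in the treated and 401, 232, 389 and 212 CPM in the cKO libraries (log2 fold change 1.04 ± 0.20, adjusted p = 0.0034), and the groups did not overlap. Dsc2, desmocollin-2, a desmosomal cadherin, was at 52.8, 48.1 and 46.05 CPM against 21.005, 43.1, 31.7 and 30.7 CPM (log2 fold change 0.63 ± 0.18, adjusted p = 0.025). The treated values were again all above the untreated ones, by a narrow margin for cKO 180. Cxadr, an adhesion receptor of the disc, and Fhl2, a LIM protein of muscle, were higher, at 0.65 ± 0.11 and 0.69 ± 0.18 (adjusted p = 0.0017 and 0.017). Tmem43, a nuclear envelope protein mutated in a form of the disease, and Ctnnd1, p120 catenin, were lower, at -0.53 ± 0.14 and -0.26 ± 0.08 (adjusted p = 0.019 and 0.039). Dsp, Jup and Dsg2 did not pass the test. Dsp, desmoplakin, was at 1537, 1597 and 1942 CPM against 689, 1597, 1483 and 1385 CPM, with adjusted p from 0.202 to 0.414 over Dsp, Jup (plakoglobin) and Dsg2 (desmoglein-2). In the fit of the 7 libraries alone 1 disc gene was called. The calls ran from 2 (without 6E13 645) to 9 (without cKO 180) in the disc list when 1 library was removed.

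Of 31 sarcomere genes 8 rose and none fell (8.65% higher and 8.16% lower over all genes). Their median log2 fold change was 0.46 (0.30 without cKO 177), and the thick filament gave 4 of those 8. Myh6, α-myosin heavy chain, the fast adult isoform of the mouse ventricle, was at 13738, 13181 and 19774 CPM in the treated and 2907, 10530.0, 7367 and 8882 CPM in the cKO libraries (log2 fold change 1.07 ± 0.31, adjusted p = 0.028). Lmod3, leiomodin 3, which nucleates actin at the pointed end of the thin filament, was at 41.6, 85.4 and 61.1 CPM against 11.8, 20.2, 15.8 and 12.7 CPM (log2 fold change 2.05 ± 0.26, adjusted p = 0.00042). Both were without overlap, and for Myh6 cKO 177 was the lowest library. Tnni3, cardiac troponin I, Myl2, the ventricular regulatory light chain, and Actc1, cardiac α-actin, were higher, at 0.96 ± 0.28, 0.90 ± 0.26 and 0.44 ± 0.14 (adjusted p = 0.029, 0.028 and 0.037). Ttn, titin, and Tnnt2, cardiac troponin T, gave 0.48 ± 0.24 and 0.38 ± 0.31 (adjusted p = 0.18 and 0.43). Myh7, β-myosin heavy chain, which is re-expressed in the failing ventricle, was at 734, 895 and 1596 CPM against 589, 5246, 3324 and 2010.5 CPM (log2 fold change -1.38 ± 0.53, adjusted p = 0.086), and at -1.70 (adjusted p = 0.0077) without cKO 177, where its level was the lowest of all 7. The 7 libraries alone gave 2 called sarcomere genes. On removal of single libraries the count of calls ran from 4 (without 6E13 250) to 13 (without cKO 180) in the sarcomere list.

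Over all genes 8.65% were higher and 8.16% lower. Of 19 calcium handling genes 7 rose and 1 fell (median log2 fold change 0.37, and 0.24 without cKO 177). Of 23 sodium and potassium channel genes 7 rose and none fell (median log2 fold change 0.51). Hrc, the histidine-rich calcium-binding protein of the sarcoplasmic reticulum, was at 319, 279 and 554 CPM against 42.6, 210.0, 143 and 168 CPM (log2 fold change 1.45 ± 0.37, adjusted p = 0.016). Kcnj5, a subunit of the acetylcholine-gated potassium channel, was at 48.1, 40.8 and 51.6 CPM against 14.9, 26.4, 21.7 and 18.4 CPM (log2 fold change 1.20 ± 0.17, adjusted p = 0.00078). Its partner Kcnj3 was at 94.1, 87.5 and 104 CPM against 11.8, 56.5, 41.3 and 43.1 CPM (log2 fold change 1.32 ± 0.33, adjusted p = 0.015). Both channel subunits were higher in each treated library than in each untreated one. Kcnd2, a pore subunit of the transient outward potassium current, was higher, at 1.29 ± 0.28 (adjusted p = 0.0069). Jph2, junctophilin-2, which holds the dyad together, was higher, at 0.67 ± 0.13 (adjusted p = 0.0041), and so was Cacnb2, a subunit of the L-type calcium channel, at 0.70 ± 0.15 (adjusted p = 0.0066). The one calcium gene that fell was Itpr2, an inositol trisphosphate receptor (log2 fold change -0.42 ± 0.10, adjusted p = 0.012). Ryr2, the release channel, gave a log2 fold change of 0.27 ± 0.27 (adjusted p = 0.52). Atp2a2, the SERCA2 pump, was at 8887, 8676 and 9262 CPM against 2103, 7462, 4859 and 5984 CPM (log2 fold change 0.81 ± 0.28, adjusted p = 0.062), and 0.56 (adjusted p = 0.014) without cKO 177. Among 25 cardiac transcription factors and adrenergic genes 4 rose, against 8.65% of all genes. Adrb1, the β1-adrenergic receptor, was at 21.6, 20.6 and 22.1 CPM against 10.3, 10.05, 13.6 and 6.61 CPM (log2 fold change 1.08 ± 0.18, adjusted p = 0.0016). Irx4, a ventricular homeobox factor, was higher, at 0.82 ± 0.19 (adjusted p = 0.0099) and so was Gata4, whose value was -0.12 on log2 TPM, at 0.27 ± 0.09 (adjusted p = 0.0403). With the 7 libraries alone edgeR called 1 channel gene and 0 of the calcium and of the factor and adrenergic lists, where 9 and 4 genes had an unadjusted p under 0.05 and DESeq2 on all groups called 11 and 5. Leaving out single libraries moved the number of calls, from 3 (without 6E13 631) to 10 (without cKO 180) in the calcium list, 3 (without 6E13 645) to 9 (without cKO 180) in the channel list and from 2 (without 6E13 250) to 8 (without cKO 180) in the factor and adrenergic list. Beside these muscle lists, the summed level of 6 cardiomyocyte defining markers was 28435 to 37868 CPM in the treated and 10231 to 25226 CPM in the cKO libraries, and its part in the result was not tested. The 6 were Myh6, Actc1, Tnnt2, Tnni3, Ryr2 and Myl2. They are also sarcomere and calcium genes given above, so their sum is not a measure separate from those lists.

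Of the 16 heart failure and fetal programme genes, 6 were lower and none higher, with a median log2 fold change of -0.79 (8.16% lower and 8.65% higher over all genes). Ctgf, connective tissue growth factor, was at 81.1, 104 and 93.5 CPM in the treated and 408, 467, 384 and 524 CPM in the cKO libraries (log2 fold change -2.26 ± 0.30, adjusted p = 0.00051). Nppa, atrial natriuretic peptide, was at 88.03, 29.7 and 74.6 CPM against 210.0, 165, 549 and 189 CPM (log2 fold change -2.12 ± 0.60, adjusted p = 0.026). The highest value was that of cKO 257, and without it the call was lost. Fstl1, a secreted follistatin-like protein, was lower, at -1.70 ± 0.27 (adjusted p = 0.0013). Edn1, endothelin-1, was lower, at -0.95 ± 0.23 (adjusted p = 0.012), and so was Ace, angiotensin-converting enzyme, at -1.31 ± 0.35 (adjusted p = 0.021). In that list 3 genes were called with the 7 libraries alone, Ctgf and Fstl1 among them, while Nppa, Edn1 and Ace were not (adjusted p = 0.088, 0.078 and 0.062). Nppb, brain natriuretic peptide, was at 134, 148 and 116 CPM against 319, 99.97, 213 and 92.7 CPM (log2 fold change -0.45 ± 0.42, adjusted p = 0.495). Ankrd1, a stretch-responsive ankyrin repeat protein, gave a log2 fold change of -0.12 ± 0.34 (adjusted p = 0.84). The treated values of these genes lay inside the range of the untreated ones. The calls ran from 3 (without 6E13 645) to 7 (without cKO 177) in the heart failure list when 1 library was removed.

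Of 19 collagen genes 18 were lower and none higher (median log2 fold change -1.66), of 29 matrix proteins and proteoglycans 21 were lower (median log2 fold change -2.01), and of 24 matrix enzymes and inhibitors 16 were lower (median log2 fold change -1.64), against 8.16% of all genes. Col1a1, the main chain of type I collagen, was at 379, 169 and 112 CPM in the treated and 1333, 321, 977 and 1525 CPM in the cKO libraries (log2 fold change -2.24 ± 0.49, adjusted p = 0.00804), where treated animal 250 lay above cKO 180. Col12a1, a fibril-associated collagen (chromosome 9, 79506268 to 79626135, minus strand), was at 11.4, 9.85 and 3.86 CPM against 46.8, 30.04, 49.1 and 99.5 CPM (log2 fold change -2.74 ± 0.40, adjusted p = 0.00086). Ltbp2, a microfibril protein (chromosome 12, 84829986 to 84923306, minus strand), was at 24.4, 23.3 and 5.36 CPM against 136, 113, 268 and 226 CPM (log2 fold change -3.38 ± 0.54, adjusted p = 0.0014). Animal 645 was the lowest treated animal for all 3 genes. Bgn, the proteoglycan biglycan, was at 447, 377 and 340.1 CPM against 1037, 985, 1608 and 1554 CPM (log2 fold change -1.74 ± 0.19, adjusted p = 0.00013). Thbs4, thrombospondin-4, was at 7.87, 12.997 and 6.22 CPM against 31.95, 57.9, 49.3 and 63.1 CPM (log2 fold change -2.49 ± 0.30, adjusted p = 0.00026). Neither overlapped between the groups, with treated levels in a narrow band for Bgn. Postn, periostin of activated fibroblasts, was at 252, 117 and 56.7 CPM against 374, 355, 635 and 1407 CPM (log2 fold change -2.29 ± 0.56, adjusted p = 0.013). Cilp, a cartilage intermediate layer protein, was at 34.3, 56.8 and 25.2 CPM against 69.03, 244, 312 and 291 CPM (log2 fold change -2.56 ± 0.47, adjusted p = 0.0028). Col3a1, Col8a1, Col5a2 and Mfap5, a microfibril-associated protein, were lower, at -2.03 ± 0.42, -2.26 ± 0.30, -2.33 ± 0.35 and -2.26 ± 0.35. Among abundant members that did not pass were Dcn, decorin (log2 fold change -0.87 ± 0.30, adjusted p = 0.061), and Col15a1 (log2 fold change -0.60 ± 0.38, adjusted p = 0.31). Without cKO 177, Dcn reached -1.14 (adjusted p = 0.00056).

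Loxl1, a lysyl oxidase homologue, was at 41.8, 39.95 and 28.4 CPM in the treated and 112, 75.9, 145 and 129 CPM in the cKO libraries (log2 fold change -1.65 ± 0.21, adjusted p = 0.00035). Mmp3, stromelysin-1, was at 0.889, 2.06 and 0.954 CPM against 18.1, 7.48, 9.57 and 13.02 CPM (log2 fold change -3.22 ± 0.44, adjusted p = 0.00065). Mmp14, a membrane-anchored metalloprotease, was lower, at -1.85 ± 0.30 (adjusted p = 0.0014), and so was Mmp2, a gelatinase, at -1.38 ± 0.34 (adjusted p = 0.013), although cKO 177 had less Mmp2 than any treated library. Timp1, a metalloprotease inhibitor, was at 6.73, 1.23 and 2.68 CPM against 128, 5.90, 14.8 and 11.97 CPM (log2 fold change -3.48 ± 0.97, adjusted p = 0.024), and -1.60 (adjusted p = 0.0801) without cKO 177. Serpinh1, the collagen chaperone HSP47, was at 123, 77.1 and 98.3 CPM against 211, 32.5, 85.9 and 86.6 CPM (log2 fold change -0.07 ± 0.48, adjusted p = 0.95), so this chaperone was not among the genes that fell. Without cKO 177 the called numbers were 17 collagens, 25 matrix proteins and 15 enzymes and inhibitors, and with the 7 libraries alone 4, 7 and 6. On removal of single libraries the count of calls ran from 11 (without 6E13 645) to 18 (without cKO 180) in the collagens, 18 (without 6E13 645) to 25 (without cKO 177) in the matrix proteins and from 10 (without 6E13 645) to 17 (without cKO 180) in the matrix enzymes.

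Of 18 TGF-β and Wnt modulators 13 were lower (median log2 fold change -1.17), against 8.16% of all genes. Tgfbr2, the type II TGF-β receptor, was at 60.2, 58.8 and 55.1 CPM in the treated and 110.2, 107, 113 and 110.2 CPM in the cKO libraries (log2 fold change -0.92 ± 0.09, adjusted p = 4e-05). Its partner Tgfbr1 was at 35.6, 33.1 and 23.5 CPM against 62.8, 63.3, 66.4 and 67.02 CPM (log2 fold change -1.08 ± 0.12, adjusted p = 0.00018). Frzb, a secreted Wnt antagonist, was at 7.64, 6.70 and 4.90 CPM against 21.3, 30.4, 44.3 and 37.9 CPM (log2 fold change -2.38 ± 0.26, adjusted p = 0.00014). In all 3 genes the groups were apart. Sfrp2, another secreted frizzled-related protein, was lower, at -2.65 ± 0.53 (adjusted p = 0.0044) and Skil, a SMAD corepressor, at -0.68 ± 0.10 (adjusted p = 0.00081). Smad7, the inhibitory SMAD, gave a log2 fold change of -0.34 ± 0.28 (adjusted p = 0.44). The insulin-like growth factor binding protein Igfbp7 had the smallest adjusted p of the mouse genes named here, at 84.4, 87.7 and 96.5 CPM against 206, 194, 234 and 228 CPM (log2 fold change -1.27 ± 0.10, adjusted p = 1.7e-05). Markers of resting fibroblasts summed to 716 to 794 CPM in the treated and 396 to 1491 CPM in the cKO libraries. Of these 12 markers 4 were called lower. Pdgfra, the fibroblast receptor, was at 46.4, 62.7 and 47.3 CPM against 120.1, 112, 103 and 113 CPM (log2 fold change -1.11 ± 0.13, adjusted p = 0.00018). Their part in the matrix result was not tested. In the fit of only those 7 libraries 3 genes of the TGF-β and Wnt list were called. Leaving out single libraries moved the number of calls, from 8 (without 6E13 645) to 13 (without cKO 180) in the TGF-β and Wnt list.

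**Figure D3:**
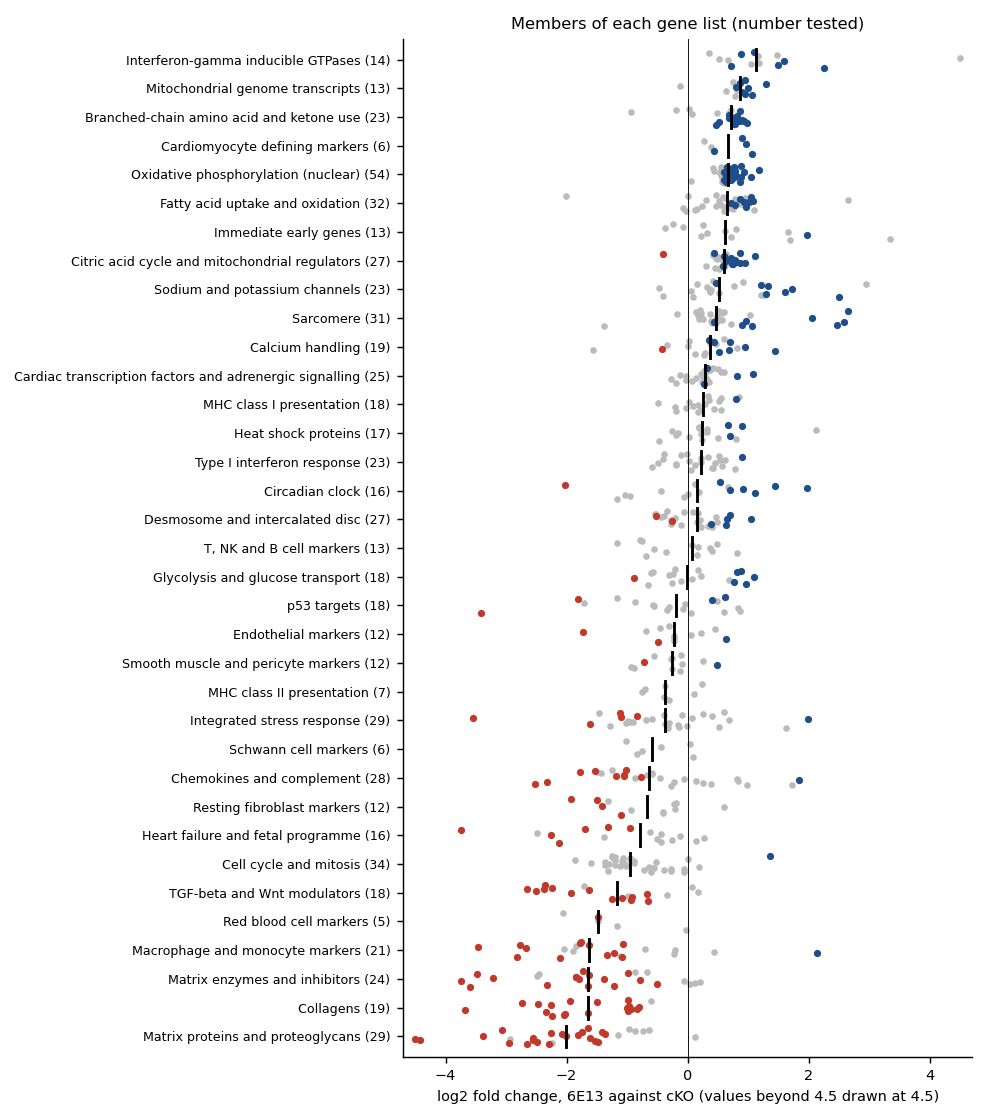
Log2 fold change of LV 6E13 against cKO (x) for the tested members of each gene list (rows, number tested in parentheses); points are genes, blue where called higher, red where called lower and grey where not called, and the bar is the list's median. Matrix proteins (21 of 29 lower) and collagens (18 of 19 lower) lie at the bottom, and the interferon-γ inducible GTPases (6 of 14 higher) and oxidative phosphorylation genes (32 of 54 higher) near the top.

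Of 54 nuclear genes of oxidative phosphorylation 32 rose and none fell (median log2 fold change 0.66), against 8.65% higher and 8.16% lower over all genes. The calls came from all 5 enzyme complexes. Cyc1, cytochrome c1 of complex III, was at 161, 164 and 137 CPM in the treated and 42.5, 95.04, 90.2 and 96.6 CPM in the cKO libraries (log2 fold change 0.93 ± 0.21, adjusted p = 0.0089). Cox7a1, a muscle-type subunit of complex IV, was at 112, 121 and 169 CPM against 36.02, 76.6, 58.9 and 65.4 CPM (log2 fold change 1.18 ± 0.22, adjusted p = 0.0029). The groups were apart in both, with cKO 177 far below its group for Cyc1. Sdhc of complex II and Ndufs3 of complex I were higher, at 0.77 ± 0.19 and 0.76 ± 0.20 (adjusted p = 0.012 and 0.016). Atp5b, the catalytic β subunit of ATP synthase, gave a log2 fold change of 0.60 ± 0.21 (adjusted p = 0.0604). The list had 38 calls without cKO 177, 52 without cKO 180 and 3 without treated animal 645. With the 7 libraries alone edgeR called 0 of them, with 29 at an unadjusted p under 0.05, and DESeq2 on all groups called 45. Of 13 transcripts of the mitochondrial genome 8 were higher (median log2 fold change 0.86). One was mt-Nd3, a subunit of complex I, at 4098, 4392 and 4968 CPM against 1342, 2813, 2239 and 2905 CPM (log2 fold change 0.95 ± 0.21, adjusted p = 0.0074) and mt-Nd5 at a log2 fold change of 0.81 ± 0.30 (adjusted p = 0.071). On removal of single libraries the count of calls ran from 1 (without 6E13 645) to 10 (without cKO 180) in the mitochondrial genome.

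Of 32 fatty acid genes 8 rose and none fell (median log2 fold change 0.65), against 8.65% higher and 8.16% lower over all genes. Enzymes of β-oxidation made up 7 of those 8. Without cKO 177 the list's median was 0.39, with 10 higher and 1 lower. Hadhb, the trifunctional protein β subunit, was at 638, 710.2 and 638 CPM in the treated and 186, 511, 292 and 404 CPM in the cKO libraries (log2 fold change 0.93 ± 0.25, adjusted p = 0.022). Acaa2, the mitochondrial thiolase, was at 204, 241 and 197 CPM against 56.9, 164, 67.9 and 116 CPM (log2 fold change 1.08 ± 0.27, adjusted p = 0.014). Fabp3, the heart fatty acid binding protein, overlapped between the groups (log2 fold change 0.60 ± 0.36, adjusted p = 0.28). Of 15 genes of branched-chain amino acid catabolism 14 were higher. Dbt, the E2 core of the branched-chain ketoacid dehydrogenase, was at 39.5, 40.8 and 53.2 CPM against 15.9, 23.97, 21.3 and 28.8 CPM (log2 fold change 0.98 ± 0.16, adjusted p = 0.0014). Mccc1, a methylcrotonyl-CoA carboxylase subunit, was at 40.7, 40.9 and 50.4 CPM against 15.5, 30.04, 25.4 and 23.5 CPM (log2 fold change 0.90 ± 0.18, adjusted p = 0.0043). Of 8 ketone and creatine genes 1 was called, and Oxct1, which activates ketone bodies, gave a log2 fold change of 0.48 ± 0.25 (adjusted p = 0.21). Of 27 citric acid cycle genes and mitochondrial regulators 14 rose and 1 fell (median log2 fold change 0.60). Ppargc1b, the coactivator PGC-1β, was at 63.7, 55.6 and 69.7 CPM against 28.3, 28.7, 35.5 and 23.7 CPM (log2 fold change 1.12 ± 0.14, adjusted p = 0.00042). Esrra, its nuclear receptor partner, was higher, at 0.60 ± 0.13 (adjusted p = 0.0089), as were the cycle enzymes Suclg1 and Fh1, at 0.87 ± 0.17 and 0.80 ± 0.16. Of 18 genes of glycolysis and glucose transport 5 rose and 1 fell (median log2 fold change -0.02, and -0.09 without cKO 177). Those that rose included Hk2, hexokinase 2 (log2 fold change 0.76 ± 0.14, adjusted p = 0.0034), Pfkfb2, the cardiac regulator of phosphofructokinase (log2 fold change 1.09 ± 0.25, adjusted p = 0.0091), and Slc2a4, the insulin-responsive transporter GLUT4 (log2 fold change 0.97 ± 0.29, adjusted p = 0.035). Pfkp, the platelet-type phosphofructokinase, fell, with 56.3, 53.96 and 46.1 CPM against 116, 73.7, 98.01 and 97.4 CPM (log2 fold change -0.89 ± 0.18, adjusted p = 0.0053). With the 7 libraries alone edgeR called 1 gene of the citric acid cycle list and 0 of the fatty acid, branched-chain and ketone, and glycolysis lists, where 11, 14 and 6 had an unadjusted p under 0.05 and DESeq2 on all groups called 13, 17 and 6. The calls ran from 0 (without 6E13 631) to 19 (without cKO 180) in the fatty acid list, 4 (without 6E13 631) to 18 (without cKO 180) in the branched-chain and ketone list, 5 (without 6E13 631) to 19 (without cKO 180) in the citric acid cycle list and from 3 (without 6E13 631) to 7 (without cKO 180) in the glycolysis list when 1 library was removed. The cardiomyocyte marker sum and the mitochondrial share of counts moved with these lists, as given above, and their part was not tested.

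Of 29 genes of the integrated stress response 5 were lower and 1 higher (median log2 fold change -0.38). Nupr1, a stress-induced chromatin protein, was at 2.33, 2.01 and 2.82 CPM in the treated and 4.90, 6.41, 10.4 and 7.46 CPM in the cKO libraries (log2 fold change -1.61 ± 0.32, adjusted p = 0.0046). Slc3a2, the heavy chain of amino acid transporters, was at 19.3, 20.7 and 17.2 CPM against 46.1, 31.4, 24.97 and 34.6 CPM (log2 fold change -0.85 ± 0.21, adjusted p = 0.013). Mthfd2, a mitochondrial one-carbon enzyme, and Slc7a5, a leucine transporter, were lower, at -1.12 ± 0.36 and -1.11 ± 0.34 with all libraries, and gave -0.83 and -0.65 without cKO 177 (adjusted p = 0.11 and 0.095). Slc7a11 was lower with all libraries (log2 fold change -3.54, adjusted p = 0.049), and gave -1.41 (adjusted p = 0.31) without cKO 177. Without that animal 2 of the list were lower. Of 17 heat shock genes 3 rose: Hspb8, a small heat shock protein of muscle (log2 fold change 0.70 ± 0.13, adjusted p = 0.0029), and the mitochondrial chaperonin pair Hspd1 (log2 fold change 0.89 ± 0.19, adjusted p = 0.0072) and Hspe1 (log2 fold change 0.66 ± 0.16, adjusted p = 0.013). Hspd1 was at 198, 181 and 229 CPM against 109.8, 123, 88.3 and 116 CPM. Of 18 p53 target genes 2 were higher and 2 lower (median log2 fold change -0.19, and -0.11 without cKO 177), near the 8.65% and 8.16% of all genes. Cdkn1a, given above, and Trp53inp1 were lower. Trp53inp1 was at 22.3, 21.4 and 16.5 CPM against 20.4, 97.1, 31.99 and 134 CPM (log2 fold change -1.82 ± 0.46, adjusted p = 0.015). Rrm2b, a ribonucleotide reductase subunit (log2 fold change 0.61 ± 0.15, adjusted p = 0.015), and Aen, an apoptosis-enhancing nuclease (log2 fold change 0.40 ± 0.13, adjusted p = 0.049), were higher. The level of Trp53inp1 in cKO split as that of Cdkn1a did, with 180 and 264 high and 177 and 257 low. Of 34 cell cycle genes 1 was called, Cenpf, a kinetochore protein (log2 fold change 1.36 ± 0.38, adjusted p = 0.025). Their median log2 fold change was -0.95 with all libraries and 0.04 without cKO 177. Mki67, the proliferation antigen, was at 24.2, 20.1 and 15.9 CPM in the treated and 115, 9.74, 16.5 and 34.6 CPM in the cKO libraries, the first of these being cKO 177. With the 7 libraries alone edgeR called 1 gene of the stress response and 1 of the heat shock list, and 0 of the p53 targets (6 at an unadjusted p under 0.05, and 5 by DESeq2 on all groups). Leaving out single libraries moved the number of calls, from 1 (without 6E13 645) to 7 (without cKO 180) in the stress response list, 2 (without 6E13 645) to 4 (without cKO 177) in the heat shock list and from 1 (without 6E13 645) to 7 (without cKO 177) in the p53 list.

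The interferon-γ inducible GTPases guard against intracellular pathogens, and comprise the immunity-related GTPases and the guanylate binding proteins. Of 14 tested members 6 were higher in the treated hearts and none lower (8.65% and 8.16% over all genes). Their median log2 fold change was 1.12, and all 14 had a positive log2 fold change. Igtp was at 46.4, 23.1 and 26.3 CPM in the treated and 5.01, 7.01, 8.64 and 6.25 CPM in the cKO libraries (log2 fold change 2.25 ± 0.41, adjusted p = 0.0026). Irgm2, another immunity-related GTPase, was at 67.04, 38.2 and 34.8 CPM against 13.02, 17.7, 21.7 and 13.9 CPM (log2 fold change 1.495 ± 0.37, adjusted p = 0.014). Tgtp2 was at 20.2, 19.9 and 24.1 CPM against 3.95, 9.31, 12.1 and 3.14 CPM (log2 fold change 1.58 ± 0.46, adjusted p = 0.0302). Each treated library was above each untreated one, and animal 250 had the highest levels of Igtp and Irgm2. Gbp9, a guanylate binding protein, was at 25.2, 22.2 and 17.98 CPM against 9.33, 11.6, 12.8 and 7.26 CPM (log2 fold change 1.09 ± 0.23, adjusted p = 0.0068). Gbp7 was at 38.7, 35.4 and 32.4 CPM against 19.6, 16.4, 27.2 and 14.4 CPM (log2 fold change 0.87 ± 0.25, adjusted p = 0.026). Irgm1 was at 38.7, 27.4 and 23.6 CPM against 13.7, 19.3, 21.8 and 18.02 CPM (log2 fold change 0.72 ± 0.23, adjusted p = 0.044). The most abundant member that was not called, Iigp1, gave a log2 fold change of 1.04 ± 0.43 (adjusted p = 0.11). The WT mean of Igtp lay between those of the groups, at 11.1 ± 3.97 CPM (SD, n = 5), and 3E13 levels were 40.1 ± 24.1 CPM (n = 4). The treated mean was above the WT mean for 12 of the 14 tested members, against 51.1% of all genes tested. The 12 included all 6 called members, which were picked by their higher level in these same treated libraries. None of these 6 was called against WT (adjusted p from 0.228 to 0.995). In cKO against WT, Gbp9 and Tgtp2 were called lower in cKO (adjusted p = 0.033 and 0.033). Of the 6, 4 were called without cKO 177, the calls of Tgtp2 (1.39, adjusted p = 0.061) and Irgm1 (0.61, adjusted p = 0.087) being lost, and 2 with the 7 libraries alone. The calls ran from 2 (without 6E13 250) to 7 (without cKO 257) in the GTPases when 1 library was removed. These genes sit in clusters of similar copies, among which reads can be shared, so the value of a single member is less certain than that of a gene without close relatives.

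The start regions of these genes are shown because 6 of the 14 members were called in the same direction. The letters TTCNNNGAA, the core of the gamma-activated site of interferon-inducible promoters, were searched on the 300 bases around each annotated start (250 before, 50 after) in RefSeq's GRCm38.p6 promoter table; the motif is its own reverse complement, so both strands are covered by 1 search. It occurred in 4 of the 5 called members that had a window, and in at least 1 window of 9.6% of all 27025 genes (8.3% of their 32851 windows). A match is a description of letters, not evidence of binding. The windows of Igtp and Irgm2 share a run of 61 identical bases, so these 2 are not independent. Those of Igtp and Tgtp2 share a run of 11 that reaches into the motif. Irgm2 and Tgtp2 have the same letters in the motif and just before it, so Tgtp2 cannot be taken as independent of them. Other motifs searched on the same windows were AAGGTCA of estrogen-related receptors in called oxidative phosphorylation genes (1 of 24, against 5.4% of all genes), CACGTG, the E-box, in called clock genes (1 of 7, against 8.1%), and CATTCC, bound by TEAD factors, in called collagens (3 of 14, against 16.6%). The 4 windows are printed 5′ to 3′ on the strand of the gene with the motif in capitals, Igtp (chr11:58199306-58199605, plus strand), Irgm2 (chr11:58214727-58215026, plus strand), Gbp7 (chr3:142530086-142530385, plus strand) and Tgtp2 (chr11:49064163-49064462, minus strand).
Igtp: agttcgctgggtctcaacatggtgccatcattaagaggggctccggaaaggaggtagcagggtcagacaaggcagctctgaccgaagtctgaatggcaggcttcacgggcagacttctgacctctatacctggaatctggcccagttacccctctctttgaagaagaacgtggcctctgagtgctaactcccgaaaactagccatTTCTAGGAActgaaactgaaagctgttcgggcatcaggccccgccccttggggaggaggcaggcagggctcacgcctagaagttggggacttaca
Irgm2: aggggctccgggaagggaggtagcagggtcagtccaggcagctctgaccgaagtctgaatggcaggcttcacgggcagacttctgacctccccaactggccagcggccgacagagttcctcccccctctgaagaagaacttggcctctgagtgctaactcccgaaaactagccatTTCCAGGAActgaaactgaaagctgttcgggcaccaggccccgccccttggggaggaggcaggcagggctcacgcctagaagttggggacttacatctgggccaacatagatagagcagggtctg
Gbp7: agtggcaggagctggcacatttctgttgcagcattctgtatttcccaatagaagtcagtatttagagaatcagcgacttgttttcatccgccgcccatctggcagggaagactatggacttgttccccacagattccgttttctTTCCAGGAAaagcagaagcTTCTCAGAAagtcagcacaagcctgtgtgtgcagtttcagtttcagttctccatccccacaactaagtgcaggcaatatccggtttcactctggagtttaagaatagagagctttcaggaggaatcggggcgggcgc
Tgtp2: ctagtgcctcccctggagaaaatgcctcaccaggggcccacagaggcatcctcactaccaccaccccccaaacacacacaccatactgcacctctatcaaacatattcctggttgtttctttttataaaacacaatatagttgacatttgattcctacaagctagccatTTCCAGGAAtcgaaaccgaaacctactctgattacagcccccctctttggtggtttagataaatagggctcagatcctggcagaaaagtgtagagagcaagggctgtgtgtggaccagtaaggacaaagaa
The first base of the motif lay 45 bases before the start in Igtp, 75 in Irgm2 and 81 in Tgtp2, and Gbp7 held it at 106 and at 87 bases before.

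**Figure D4:**
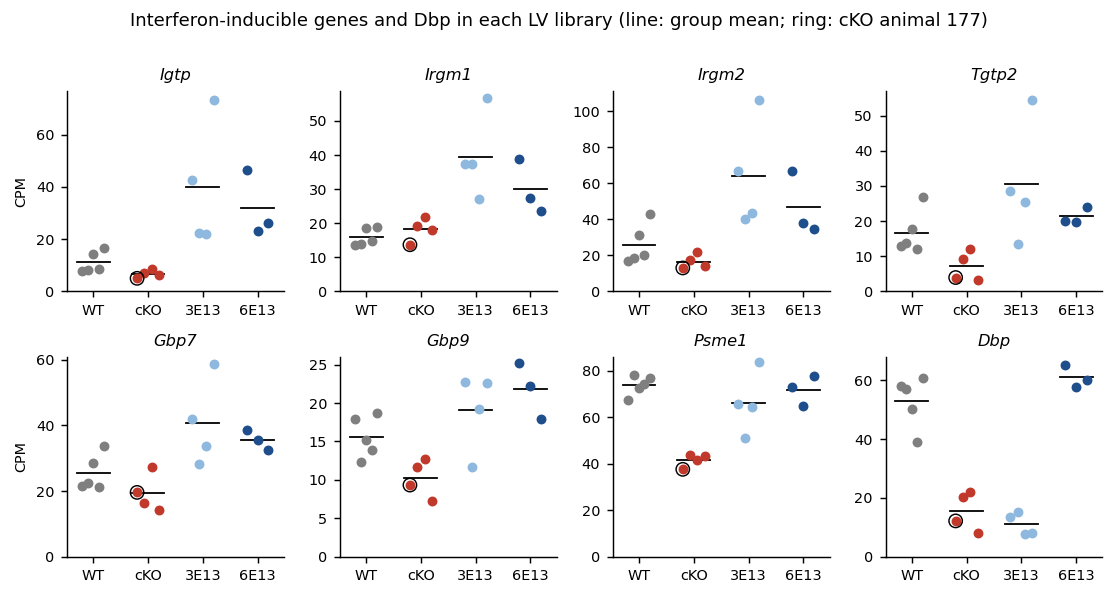
CPM (linear axis from 0) of the 6 called interferon-γ inducible GTPases, Psme1 and Dbp in each LV library of WT, cKO, 3E13 and 6E13; points are animals, lines group means, and a ring marks cKO 177. For Igtp the treated points lie between 23.1 and 46.4 CPM and the cKO points between 5.01 and 8.64.

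Of 18 genes of class I presentation 1 was called, where 8.65% of all genes were higher and 8.16% lower. Psme1, the PA28α subunit of the proteasome activator, was at 73.1, 64.8 and 77.7 CPM against 37.6, 43.6, 41.5 and 43.4 CPM (log2 fold change 0.79 ± 0.13, adjusted p = 0.0015). The groups did not overlap for Psme1. B2m, the light chain of class I molecules, gave a log2 fold change of 0.08 ± 0.21 (adjusted p = 0.83). Of 7 class II genes edgeR called 0 (0 at an unadjusted p under 0.05, 0 by DESeq2), with a median log2 fold change of -0.38 (-0.12 without cKO 177). Of 28 chemokine and complement genes 9 were lower and 1 higher (median log2 fold change -0.64). The lower ones included all 3 chains of C1q. C1qb was at 30.4, 24.5 and 32.5 CPM against 98.8, 36.95, 62.8 and 65.5 CPM (log2 fold change -1.18 ± 0.23, adjusted p = 0.0036). C1qa and C1qc were lower, at -1.05 ± 0.21 and -1.06 ± 0.23 (adjusted p = 0.0046 and 0.0074). Serping1, the C1 inhibitor, was lower, at -1.03 ± 0.26 (adjusted p = 0.016), with cKO 177 inside the treated range. Of 21 markers of macrophages and monocytes 12 were lower and 1 higher (median log2 fold change -1.63, and -0.77 without cKO 177). Mrc1, the mannose receptor of resident macrophages, was at 43.8, 44.02 and 36.9 CPM against 169, 69.3, 95.8 and 85.9 CPM (log2 fold change -1.34 ± 0.24, adjusted p = 0.0024). Cd14, the endotoxin coreceptor, was at 2.33, 3.33 and 2.72 CPM against 38.1, 7.01, 7.41 and 26.3 CPM (log2 fold change -2.82 ± 0.51, adjusted p = 0.0026). Lyve1, Fcgr3 and Tlr7 were lower, at -1.23 ± 0.28, -1.63 ± 0.38 and -1.78 ± 0.30. Ccr2, the receptor of recruited monocytes, was at 22.8, 13.7 and 5.95 CPM against 159.7, 4.48, 37.3 and 10.1 CPM (log2 fold change -1.90 ± 0.85, adjusted p = 0.14), its highest value being cKO 177. The summed macrophage markers were 280 to 330 CPM in the treated and 334 to 1530 CPM in the cKO libraries. Of 19 markers of T, NK and B cells 13 were tested, and edgeR called 0 (0 at an unadjusted p under 0.05, 0 by DESeq2). Those 13 summed to 5.99 to 9.84 and 5.23 to 12.4 CPM. The part of both cell groups in the GTPase and complement results was not tested. With the 7 libraries alone edgeR called 0 of the chemokine and complement genes (13 at an unadjusted p under 0.05, and 12 by DESeq2 on all groups) and 2 of the macrophage markers. On removal of single libraries the count of calls ran from 4 (without 6E13 250) to 11 (without cKO 180) in the chemokine and complement list and from 5 (without 6E13 645) to 17 (without cKO 180) in the macrophage list.

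Of 12 endothelial markers 1 was higher and 2 lower, the first being near the share of all genes (8.65% higher, 8.16% lower). Vwf, von Willebrand factor, was at 58.2, 40.9 and 53.95 CPM against 87.4, 319, 149 and 120.4 CPM (log2 fold change -1.73 ± 0.40, adjusted p = 0.0104). Pecam1 was lower, at -0.48 ± 0.11 (adjusted p = 0.0078) and Kdr, the VEGF receptor, was higher, at 0.63 ± 0.20 (adjusted p = 0.0403), and at 0.52 (adjusted p = 0.073) without cKO 177. Fitted to the 7 libraries alone, edgeR called 0 endothelial markers (4 at an unadjusted p under 0.05, and 3 by DESeq2 on all groups), and with 1 library removed it called from 1 (without 6E13 631) to 4 (without cKO 257). Of 12 smooth muscle and pericyte markers Smtn, smoothelin, was higher, at 0.49 ± 0.09 (adjusted p = 0.0033) and Pdgfrb was lower, at -0.72 ± 0.15 (adjusted p = 0.0069). The endothelial sum was 1136 to 1254 CPM in the treated and 1103 to 1681 CPM in the cKO libraries. Tbx18, an epicardial factor, was lower (log2 fold change -0.72 ± 0.19, adjusted p = 0.018), as was Alas2, the red cell form of aminolevulinate synthase (log2 fold change -1.49 ± 0.46, adjusted p = 0.038). Of 10 adipocyte markers 1 (Plin1) and of 10 epicardial and mesothelial markers 2 (Msln and Muc16) had no count in any of the 7 libraries. The 3 adipocyte markers tested summed to 19.7 to 28.7 CPM in the treated and 16.4 to 49.2 CPM in the cKO libraries. The 3 epicardial and mesothelial markers tested summed to 14.3 to 19.7 and 17.6 to 41.1 CPM. Of 3 markers of atrial muscle 2 were called in opposite directions, Stard10 (log2 fold change 1.19 ± 0.26, adjusted p = 0.00701) and Nr2f2 (log2 fold change -0.65 ± 0.18, adjusted p = 0.023).

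Of 16 clock genes 6 were higher and 1 lower (median log2 fold change 0.15, and -0.00073 without cKO 177, with 6 higher and 2 lower). Over all genes 8.65% were higher and 8.16% lower. The fit of the 7 libraries alone called 1 clock gene. Dbp, a D-box transcription factor with one of the strongest daily rhythms known, was at 65.2, 57.6 and 60.1 CPM in the treated and 12.2, 20.3, 21.9 and 8.24 CPM in the cKO libraries (log2 fold change 1.96 ± 0.30, adjusted p = 0.00102). Its relative Hlf was at 46.2, 39.03 and 48.9 CPM against 7.34, 31.3, 12.004 and 15.3 CPM (log2 fold change 1.44 ± 0.33, adjusted p = 0.0091). Nfil3, a repressor that competes for D-boxes, moved the other way, at 2.86, 5.12 and 3.41 CPM against 18.2, 8.26, 5.91 and 29.3 CPM (log2 fold change -2.02 ± 0.44, adjusted p = 0.00701). The nuclear receptors Nr1d2 and Nr1d1 were higher, at 0.91 ± 0.19 and 0.70 ± 0.18 (adjusted p = 0.0068 and 0.019), and Bhlhe41 at 0.52 ± 0.12 (adjusted p = 0.011). Per1 ranged widely in cKO, at 126, 231, 36.4 and 329.6 CPM, against 90.7, 82.8 and 90.5 CPM in the treated libraries (log2 fold change -1.04 ± 0.56, adjusted p = 0.22). The hour of collection is not given in the sources used here, and its part was not tested. Of 13 immediate early genes 1 was called higher, near the 8.65% of all genes. Egr1 was at 57.01, 530.2 and 89.6 CPM against 82.5, 55.8, 44.4 and 46.7 CPM (log2 fold change 1.97 ± 0.61, adjusted p = 0.038), which gave 0.36 (adjusted p = 0.66) without treated animal 631. Leaving out single libraries moved the number of calls, from 5 (without 6E13 645) to 8 (without cKO 177) in the clock list.

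The study names 31 genes for this experiment, from classes it took as known in the disease. Whether single genes were picked with these samples in view is not given, so their direction is not used as independent evidence. Of these, 5 were higher (Dsc2, Gja1, Myh6, Tnni3 and Myl2), 6 lower (Nppa, Col1a1, Col3a1, Timp1, Mmp2 and Postn) and 20 were not called (17 positive, 3 negative, lowest adjusted p = 0.0619). The shares over all genes were 8.65% higher and 8.16% lower.

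Set beside WT, the treated hearts differed in 14 of 16410 genes (0.0853%; 1025 at an unadjusted p under 0.05), 13 higher and 1 lower, where the lower gene was the deleted Pkp2 (-1.51 ± 0.17, adjusted p = 0.0014). The higher genes named here were the transgene, Igfbp7 (0.63 ± 0.09, adjusted p = 0.031) and members of the matrix or TGF-β and Wnt lists. The latter were Ltbp2 (3.02 ± 0.49), Col12a1 (2.33 ± 0.37), Cilp (2.58 ± 0.41), Sfrp2 (3.04 ± 0.49), Thbs4 (1.53 ± 0.27) and Skil (0.52 ± 0.09). Cilp was at 6.399 ± 2.77 CPM in WT (SD, n = 5) and 93.1 ± 20.7 CPM in 3E13 (n = 4), with the treated values above between them. The treated mean was above the WT mean for 19 of 19 collagens and 26 of 29 matrix proteins, and for 5 of 54 oxidative phosphorylation genes, against 51.1% of all genes tested. With the 2 groups alone 182 genes were called against WT, by DESeq2 104, and with 1 library left out from 2 (without WT 248, 626, 637 or 647) to 15 (without treated animal 645). Without any 1 of those 4 WT libraries, or without treated animal 250, only 1 gene was called higher. At most 1 of the higher calls named above was therefore kept in each of those fits.

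Between the 2 doses 2 genes were called (0.0122%; 913 at an unadjusted p under 0.05). Dbp was at 65.2, 57.6 and 60.1 CPM with 6E13 and 11.1 ± 3.81 CPM with 3E13 (2.45 ± 0.30, adjusted p = 0.0098), and 53.02 ± 8.69 CPM in WT. Coq10b, a coenzyme Q binding protein, was at 27.1, 33.96 and 29.5 CPM with 6E13 and 16.2 ± 0.873 CPM with 3E13 (0.89 ± 0.13, adjusted p = 0.032). The transgene itself was at 535, 333 and 372 CPM with 6E13 and 296 ± 90.1 CPM with 3E13 (0.48 ± 0.28, adjusted p = 0.96). DESeq2 called 39 genes, and with 1 library left out the count was 0 to 3, at 0 without 3E13 252, 3E13 253 or treated animal 645. The few calls do not show that the doses act alike.

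**Figure D5:**
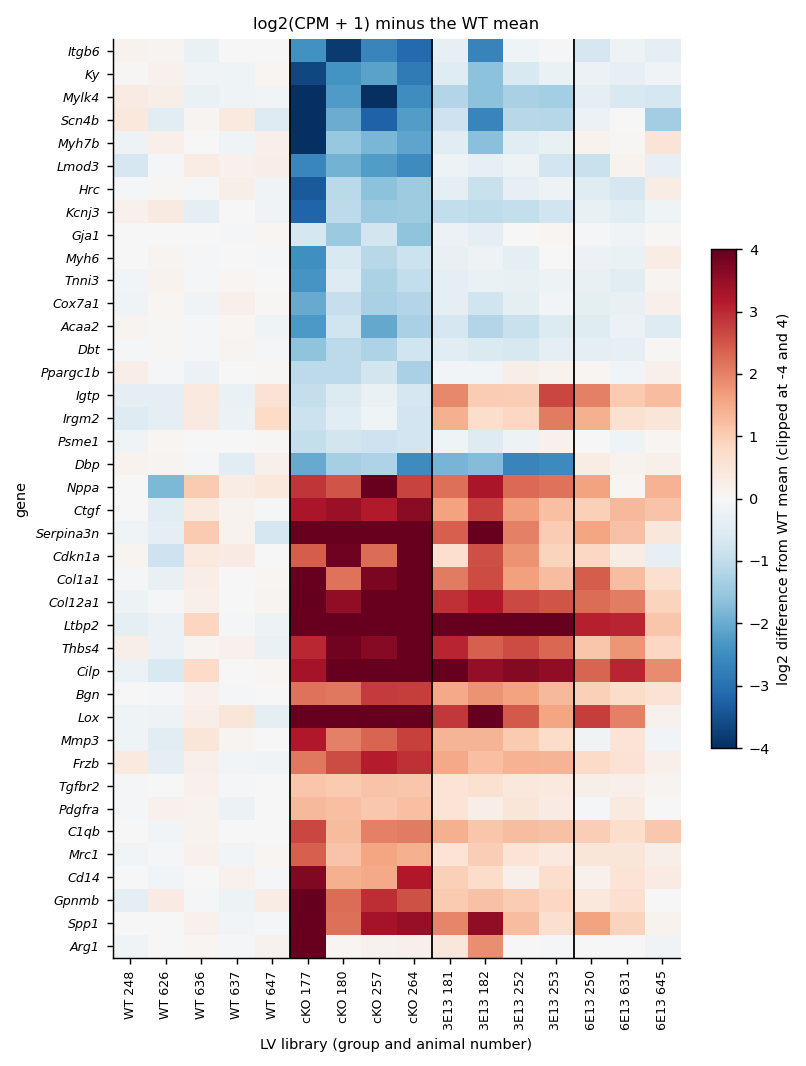
Level of named genes (rows) in the 16 LV libraries (columns, grouped as WT, cKO, 3E13 and 6E13), as log2(CPM + 1) minus the gene's mean over WT, with colours cut at 4 either way. The cKO columns are blue for the muscle genes at the top and red for the matrix genes, the 6E13 columns are paler in both, and for Igtp the 6E13 columns are red and the cKO columns blue.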

How the data were processed

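RNA-seq was analysed for the LV libraries of 16 mice, 1 library per animal. According to the deposited labels and the study's methods, the authors trimmed the reads with fastp, ran Salmon 1.8.0 on mouse transcripts of GRCm39 plus human PKP2, and summarised the result per gene. The deposited tables hold expected counts, TPM (length-normalised transcript abundance) made by the authors, and the effective transcript length the authors obtained; the expected counts were rounded to whole numbers here. Of 39152 symbols 33105 had a position in the annotation, and a row without a name, at most 0.000971% of a library, was left out.

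Counts were filtered with filterByExpr, scaled by TMM and fitted with edgeR 4.0.16 (R 4.3.3) in 1 model of the 4 LV groups. The quasi-likelihood F test was adjusted by Benjamini-Hochberg over 16410 genes and called at 0.05; SE is the log2 fold change divided by the root of F, and genes listed at 0 were bounded by a floor of 3 counts per library. The test recovered 65% of genes simulated with a log2 fold change of 1 and 89% with 2 in this comparison, among 15964 genes. Only genes with higher mean counts were changed, and all others were simulated without a difference between groups. These shares therefore do not cover genes with few counts, or data in which many genes differ. Alternatives were DESeq2 1.42.0, limma 3.58.1 on log2(TPM + 1), RLE scaling, no filter, length offsets, sex, and left-out libraries. Animals were distinct samples, numbered in the labels.

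Genes were named by rule: label checks; the 10 largest rises and falls of called, not overlapping genes that averaged 5 CPM or more in the higher group, predicted genes left out; up to 6 called and 2 uncalled members of each of 38 gene lists; and genes the study names. The members and lists were chosen with earlier results of these data known. Some genes the rule named are not reported here.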

Additional observations from a re-analysis of the deposited data

Results flagged for a closer look

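The levels of the genes named in the text were checked within the WT, cKO and 3E13 groups for a single animal far from the others by Dixon's criterion at 95%. Of 469 groups 26 stood out, against about 23.4 that 1 in 20 would give by chance, and the 3 treated libraries were too few to check.

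cKO 177 was the distant animal for 8 genes. It was high for Arg1 (71.6 CPM against 0.169 to 0.262 in the other cKO animals), Spp1 (397 CPM against 3.91 to 11.1), Clec4e (23.2 CPM against 0.60 to 1.86), Adam8 (96.9 CPM against 4.05 to 12.1), Timp1 (128 CPM against 5.90 to 14.8) and Slc7a11 (12.0 CPM against 0.202 to 1.26). The same animal was low for Cyc1 (42.5 CPM against 90.2 to 96.6) and Ccng1, a p53 target (188 CPM against 493 to 524). cKO 257 was high for Nppa (549 CPM against 165 to 210.0).

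Animal 182 of the 3E13 group was the distant one for 10 genes, a group whose means enter only the comparison of the doses and whose spread enters every fit of the 4 groups. It was high for Serpina3n (249 CPM against 10.4 to 28.9), Lox (127 CPM against 10.8 to 26.6), Arg1 (3.00 CPM against 0.0437 to 0.495), Nppa (279 CPM against 130 to 137), Smad7 (72.5 CPM against 27.3 to 34.3), Pfkp (106 CPM), Tnnt2 (3917 CPM), Ryr2 (5600 CPM) and Ccng1 (784 CPM). It was low for Hspd1 (95.9 CPM against 184 to 193).

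Among WT animals 636 was high for Bgn (257 CPM), Ltbp2 (4.38 CPM), Postn (35.2 CPM) and Tgfbr2 (57.2 CPM), 626 was high for Clec4e (0.369 CPM) and low for Igfbp7 (50.5 CPM), and 248 was low for C1qa (10.2 CPM).

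The level differed between the doses for Dbp, with a log2 fold change of 2.45 between 6E13 and 3E13, and for Coq10b, with 0.89. The hour of collection is not given in the sources used here and its part was not tested, and no gene was called between the doses without 3E13 252, 3E13 253 or 6E13 645.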

How the results depend on the processing

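In the fit of only the 2 groups compared, 305 genes were called (111 higher, 194 lower), of which 297 were calls of the 4-group fit in the same direction. On log2 TPM the calls were 246 higher and 3704 lower. With 1 library left out, the count ran from 1169 (without 6E13 645) to 3454 (without cKO 180), with 632 to 1740 higher and 537 to 1714 lower; it was 1665 without 6E13 250, 1515 without 631 and 2863 without cKO 177. Of 131 called genes named in the text, 29 held their call under every alternative tried for them. The 2-group fit kept 35 and removal of cKO 177 kept 122 of the 131.

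Between the doses DESeq2 called 39 genes and left-out libraries gave 0 to 3. Against WT the 2-group fit called 182 (164 higher, 18 lower) and DESeq2 104 (90 higher, 14 lower), and left-out libraries gave 2 to 15, with 1 to 14 higher and 1 to 2 lower. The difference in mitochondrial share ran from 8.03 to 11.3 percentage points with 1 library left out (exact permutation p from 0.0667 to 0.133, where 0.05 to 0.0667 is the smallest those designs allow).

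Directions turned as follows; the cause was not tested. On log2 TPM Dsp gave -0.082, Jup -0.22, Ryr2 -0.074, Gata4 -0.12 and B2m -0.36. With libraries centred on their median gene, an alternative chosen after seeing the data, B2m gave -0.0016, Serpinh1 0.17 and Esr1 0.25, and Esr1 gave 0.20 with length offsets. Serpinh1 gave 0.20 in a model of both ventricles. With 1 library left out Pkp2 ran from -0.26 to 0.034, Ankrd1 from -0.28 to 0.18 and Serpinh1 from -0.36 to 0.55.

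No paired analysis was possible because the groups compared share no animal numbers. Depth, from 21013335 assigned reads upward, limits genes near the floor of 3 counts. Of the genes named, Arg1 was given with its counts, and others with low levels, such as Spp1 and Clec4e, in CPM only.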
